A study of Mus musculus with 22 samples.

Results

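*Gata1*, *Gata2* and *Kit*, the 3 genes at the centre of the GATA switch, were examined in ChIP-seq peak lists of mouse G1ER (G1E-ER4) cells. The members were chosen by name, as 3 of the 21853 protein-coding genes of the GENCODE annotation of mm10, and all peaks within each gene body and 120 kb on either side of it were collected. These windows held 17 of the 16244 regions with an H3K4me3 peak in any list, 34 of the 24299 H3K27ac regions, and 27 of 33193 (0 h) and 35 of 41473 (24 h) CTCF peaks. The genes were picked with the peaks in view: the absence of histone peaks from *Gata2* and the width and low scores of the peaks at *Kit* were part of the choice, so both are described here without a test.

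GATA1 and GATA2 are zinc finger transcription factors that bind the same short GATA sequences. In erythroid progenitors GATA2 is abundant and helps to keep its own gene active; as GATA1 rises it takes over GATA2's sites, *Gata2* is silenced, and the cells mature, an exchange known as the GATA switch. *Kit* encodes the receptor tyrosine kinase for stem cell factor (SCF), which sustains proliferation of progenitors, and it is a known target of the same exchange. *Gata2* is known to be controlled by elements far upstream and by an intronic element in which a GATA sequence lies beside an E-box, the site bound by the GATA partner TAL1. H3K4me3 is the histone mark of active promoters, H3K27ac marks active promoters and enhancers, and CTCF is a DNA-binding protein found at insulators and the anchors of chromatin loops.

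All lists came from G1ER cells, an erythroid progenitor line that is 1 clone derived from *Gata1*-null G1E cells and that stably carries GATA1-ER, a fusion of GATA1 with the part of the estrogen receptor that binds its ligand. All cultures contained 15% fetal bovine serum, 50 ng/ml SCF (the ligand of KIT) and 2 U/ml erythropoietin. Cells were undifferentiated (0 h, no β-estradiol) or differentiated with 0.1 µM β-estradiol, which activates GATA1-ER, for 2, 6, 12, or 24 h. H3K4me3 and H3K27ac each had 10 lists, with 2 replicates at each of 5 time points, and CTCF had 1 list at 0 h and 1 at 24 h. GATA1 activity therefore came from the fusion protein in every differentiated sample, and the *Gata1* gene itself was disrupted in all groups, the 0 h controls included.

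The lists hold peak positions and a score per peak, with no read counts, so the depth was unknown. H3K4me3 lists held 12925 to 14452 peaks, H3K27ac lists 17247 to 18333, and the CTCF lists 33193 at 0 h and 41473 at 24 h. The lowest score was between 50.0 and 50.16 in all of them. A list shows only what passed the peak caller: a missing peak is not a measured level of 0. As a check of the cell type, the promoters of 4 of 6 erythroid genes (*Epor*, *Klf1*, *Hbb-bt* and *Tfrc*) had an H3K4me3 peak in all 10 lists, that of *Alas2* in 9 and that of *Tal1* in 0. H3K27ac peaks were fewer at the same promoters, found in 10 lists at *Klf1*, 7 at *Alas2*, 2 at *Epor*, 1 at *Tfrc* and 0 at *Hbb-bt* and *Tal1*. None of 4 genes of other lineages (*Cd3e*, *Alb*, *Neurod1* and *Myod1*) had a peak of either mark in any list. *Tal1*, a gene that erythroid cells use, shows that a promoter can be missing from these lists in cells of the labelled type.

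**Figure D1:**
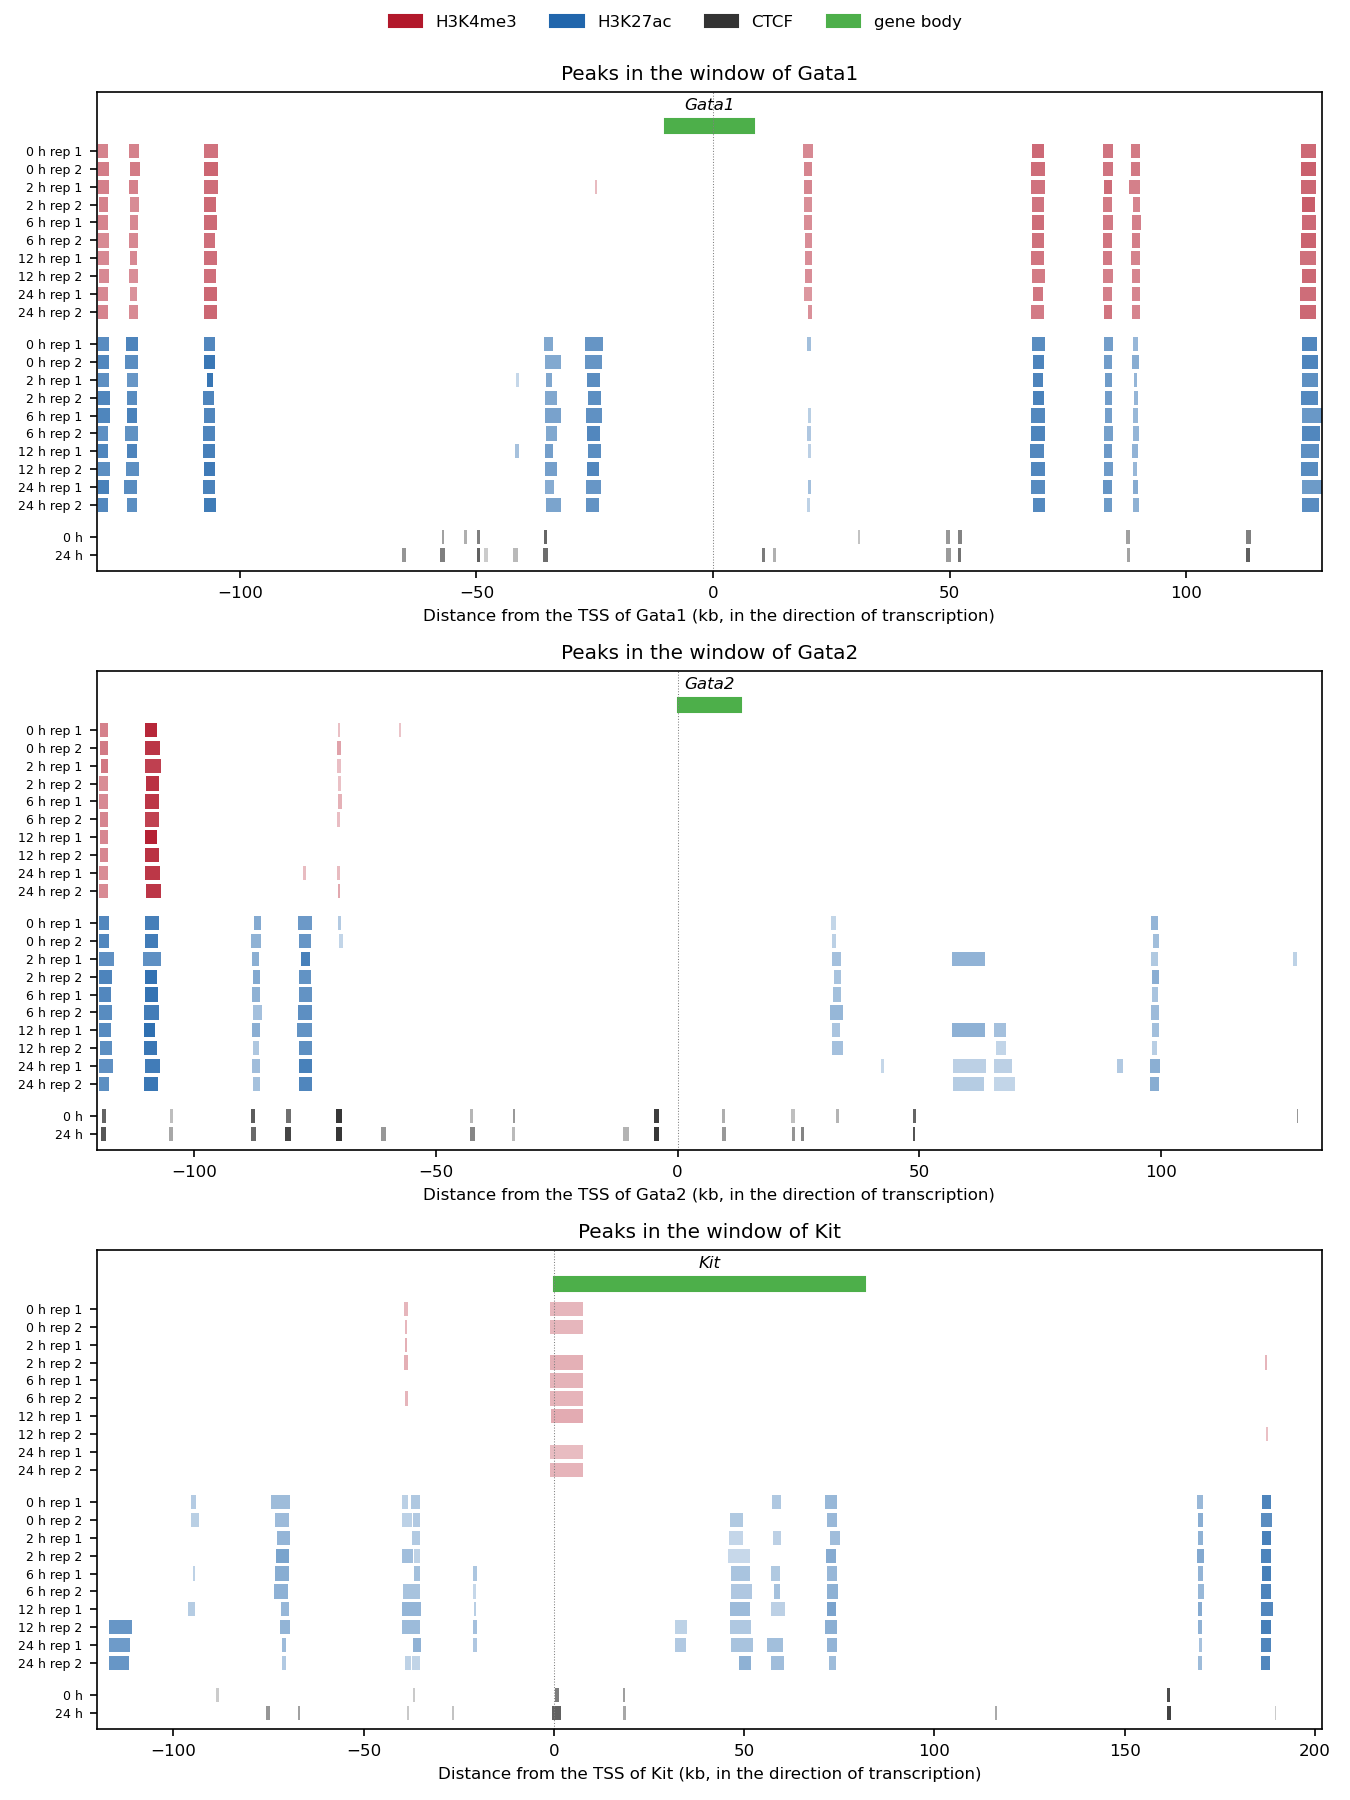
Peaks within 120 kb of the bodies of *Gata1*, *Gata2* and *Kit*. The x axis gives the distance from the TSS in kb along the direction of transcription, each row is 1 of the 22 lists, each bar is a peak drawn to scale, and darker bars have a higher score percentile within their list. The bodies of *Gata1* and *Gata2* hold no histone peak in any row, and the body of *Kit* holds the wide H3K4me3 peak at its start in 8 of 10 rows.

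Distances below are from the transcription start site (TSS) to the centre of a region, positive in the direction of transcription, and elements are named by gene and distance. The following reference sequences belong to the elements on which the results turn; each is 300 bases long, is given 5′ to 3′ and comes from RefSeq's GRCm38 (mm10) assembly. In the first set, capitals mark GATA hexamers (the letters AGATAA or else AGATAG, and with a first T the letters TGATAA or else TGATAG, searched on both strands, so that TTATCT is a hexamer read from the other strand). The *Kit* promoter (chr5:75574741-75575040, plus strand, 250 bases before to 50 after the RefSeq start) is shown because the wide H3K4me3 peak and the 24 h CTCF peak cover it. The stretch of the *Kit* -71.8 kb element (chr5:75504177-75504476, plus strand) lies in the only region of the *Kit* window whose H3K27ac length passed the test. The stretch of the *Gata2* +67.6 kb element (chr6:88260888-88261187, plus strand) lies in the H3K27ac region gained late near *Gata2*. The stretch of the *Gata1* -25.1 kb element (chrX:7994045-7994344, plus strand) lies in the nearest H3K27ac region upstream of *Gata1*. For these elements the stretch with the most hexamers was taken from the bases common to all lists that had the peak.
Kit promoter: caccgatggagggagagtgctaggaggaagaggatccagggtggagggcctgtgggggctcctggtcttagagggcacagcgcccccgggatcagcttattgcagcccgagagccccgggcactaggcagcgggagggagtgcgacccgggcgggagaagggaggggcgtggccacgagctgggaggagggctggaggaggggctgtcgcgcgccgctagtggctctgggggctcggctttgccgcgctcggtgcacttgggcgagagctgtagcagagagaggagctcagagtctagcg
Kit -71.8 kb: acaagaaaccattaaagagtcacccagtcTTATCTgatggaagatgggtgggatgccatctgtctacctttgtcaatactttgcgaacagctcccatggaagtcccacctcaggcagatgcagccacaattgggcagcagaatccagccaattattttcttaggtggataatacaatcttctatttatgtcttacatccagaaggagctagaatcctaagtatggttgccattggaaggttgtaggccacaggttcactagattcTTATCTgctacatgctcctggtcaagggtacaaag
Gata2 +67.6 kb: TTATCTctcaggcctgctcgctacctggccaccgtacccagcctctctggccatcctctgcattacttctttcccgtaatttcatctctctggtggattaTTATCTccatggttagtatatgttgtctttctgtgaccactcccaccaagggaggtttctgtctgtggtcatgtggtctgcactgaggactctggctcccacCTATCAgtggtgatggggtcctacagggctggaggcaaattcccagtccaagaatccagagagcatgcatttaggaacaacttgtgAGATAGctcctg
Gata1 -25.1 kb: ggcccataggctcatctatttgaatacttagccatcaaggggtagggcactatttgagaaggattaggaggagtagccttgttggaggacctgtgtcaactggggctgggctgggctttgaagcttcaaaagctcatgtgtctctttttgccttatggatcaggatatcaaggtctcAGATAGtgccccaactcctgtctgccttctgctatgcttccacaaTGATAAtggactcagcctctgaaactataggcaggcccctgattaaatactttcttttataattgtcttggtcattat

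None of these letters occurred in the *Kit* promoter, nor in the promoters of *Gata1* and *Gata2* of the same length. Most promoters lacked them too: 29.8% of 32851 RefSeq promoters of 300 bases held at least 1 hexamer. *Kit* and *Gata2* each had 2 RefSeq promoters, of which only the nearer to the TSS used here was searched. The printed stretch of *Kit* -71.8 kb held 2 of the 6 hexamers in the 1018 bp shared by all 10 lists, and its whole region of 4910 bp held 17, or 3.46 per kb. *Gata2* +67.6 kb had 12 hexamers (2.72 per kb) and *Gata1* -25.1 kb had 10 (2.54 per kb). Over 24297 H3K27ac regions the median was 1.91 per kb, with quartiles of 1.19 and 2.85, so that *Kit* -71.8 kb lay above the upper quartile and the other two lay within it. Of the central 300 bases of all H3K27ac regions, 42.0% held a hexamer. A match of letters is a description of the sequence and not a measured binding site.

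In the second set, capitals in the sequences of *Kit* +0.9 kb (chr5:75575700-75575999, plus strand) and *Gata2* -4.4 kb (chr6:88189488-88189787, plus strand) mark a core of the CTCF motif, CCNNNAGNNGGC, on either strand. Both lie in CTCF peaks seen at 0 h and 24 h, 1 at the start of *Kit* and 1 just upstream of *Gata2*. In *Gata2* +9.5 kb (chr6:88203107-88203406, plus strand), the only peak of any kind within the body of *Gata2*, capitals mark an E-box (CANNTG) followed after 7 to 9 bases by a GATA hexamer, searched on both strands.
Kit +0.9 kb CTCF: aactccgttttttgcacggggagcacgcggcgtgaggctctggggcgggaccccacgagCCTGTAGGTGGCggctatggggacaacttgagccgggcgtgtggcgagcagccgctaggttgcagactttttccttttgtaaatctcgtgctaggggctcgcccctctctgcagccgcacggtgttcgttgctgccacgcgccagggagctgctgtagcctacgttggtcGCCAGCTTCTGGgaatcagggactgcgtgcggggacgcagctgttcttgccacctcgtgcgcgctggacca
Gata2 -4.4 kb CTCF: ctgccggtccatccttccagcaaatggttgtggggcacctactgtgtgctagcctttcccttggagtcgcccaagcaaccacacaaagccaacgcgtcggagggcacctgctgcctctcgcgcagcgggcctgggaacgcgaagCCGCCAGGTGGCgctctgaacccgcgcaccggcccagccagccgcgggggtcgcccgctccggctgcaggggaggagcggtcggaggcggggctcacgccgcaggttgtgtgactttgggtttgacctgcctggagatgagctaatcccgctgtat
Gata2 +9.5 kb CTCF: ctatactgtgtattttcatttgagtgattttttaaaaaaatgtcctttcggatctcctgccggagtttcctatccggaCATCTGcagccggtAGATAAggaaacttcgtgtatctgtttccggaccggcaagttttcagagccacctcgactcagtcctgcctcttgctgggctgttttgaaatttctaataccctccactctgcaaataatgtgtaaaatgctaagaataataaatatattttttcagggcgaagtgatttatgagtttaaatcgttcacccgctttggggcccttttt

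The E-box CATCTG and the hexamer AGATAA in *Gata2* +9.5 kb lay 8 bases apart at chr6:88203185-88203204, in intron 4 of the 6-exon principal transcripts. This composite was found in the central 300 bases of 1.21% of 0 h and 1.16% of 24 h CTCF peaks, of 1.56% of H3K27ac regions and in 0.648% of promoters. The named CTCF peaks, however, were searched over their whole length. In *Gata2* +9.5 kb the composite lay outside the central 300 bases, so these shares are on a narrower measure. The CTCF core occurred in 52.8% of 0 h and 53.6% of 24 h CTCF peaks on the same measure, in 7.07% of H3K27ac regions and in 8.61% of promoters. *Kit* +0.9 kb held 2 cores, 1 on each strand, in intron 1. *Gata2* -4.4 kb held 1, which ran past the edge of its central 300 bases.

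*Gata2* (ENSMUSG00000015053.14, chr6:88193891-88207032, plus strand, body of 13142 bp) had no H3K4me3 and no H3K27ac peak in its body or within 5 kb of it in any of the 20 histone lists. The nearest H3K4me3 peak lay 57.2 to 108.0 kb from the gene body and the nearest H3K27ac peak 18.4 to 43.8 kb, depending on the list. Of all protein-coding genes, 9072 (41.5%) shared this absence. Of those 9072 genes, 2823 (31.1%) had a CTCF peak in both lists within the same 5 kb, as *Gata2* did, against 12718 (58.2%) of all genes. *Gata2* thus sat in a stretch without called histone peaks that held CTCF peaks. The paper, however, describes GATA2 as highly expressed in undifferentiated G1ER cells. It also reports modest changes in the epigenetic landscape at the *Gata2* promoter and enhancers at its later time points. The absence is therefore a lack of called peaks, and whether the marks themselves were missing from the gene was not tested.

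*Gata1* (ENSMUSG00000031162.14, chrX:7959260-7978071, minus strand, body of 18812 bp) likewise had no histone peak in its body or within 5 kb in any list. Its annotated body extends upstream of the TSS of the principal transcript at position 7967910. The nearest H3K4me3 peak was 10.5 to 11.3 kb away, at the promoter of *Hdac6*, a histone deacetylase gene, and the nearest H3K27ac peak was 11.2 to 13.9 kb away. The endogenous *Gata1* gene is the disrupted allele, and reads from GATA1-ER coding sequence cannot be told apart from it. No CTCF peak fell in the *Gata1* body either.

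*Kit* (ENSMUSG00000005672.12, chr5:75574916-75656722, plus strand, body of 81807 bp) was the only one of the 3 genes with an H3K4me3 peak at its TSS. That peak covered 8839 and 8827 bp at 0 h, 0 and 8533 bp after 2 h, 8662 and 8749 bp after 6 h, 8397 and 0 bp after 12 h, and 8667 and 8514 bp at 24 h. It was present in both replicates at 0, 6 and 24 h and absent from 1 replicate at 2 h and 1 at 12 h, with nearly the same length wherever it was present. It spanned chr5:75573812-75582697 over all lists, from the promoter through exon 1 into intron 1.

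Where present, the *Kit* promoter peak scored 75.98 and 76.23 at 0 h, 102.24 in the 2 h list, 90.77 and 86.84 at 6 h, 116.61 in the 12 h list, and 70.25 and 87.16 at 24 h. These scores stood above only 5.39% to 14.9% of the peaks of their own lists, although the peak was among the longest. Across all H3K4me3 lists, the score was highest in peaks of 2 to 4 kb, whose median percentile averaged 72.7 against 23.5 for shorter ones, and was 53.4 at 4 to 6 kb, 35.1 at 6 to 8 kb and 13.9 (10.5 to 17.3 over the lists) at 8 kb and longer. The longest class held 255 peaks in the 10 lists together, 12 to 36 in each. Of the 8 *Kit* peaks, 6 scored below the median of that class in their own list, and the others stood at percentiles of 12.3 against 12.3 (2 h replicate 2) and 14.9 against 13.6 (12 h replicate 1). In 5 lists the *Kit* peak had a percentile under 10, as had 26.6% of the class on average. Within that class the *Kit* peak scored above 8.33% to 53.8% of the peaks of its list. Its width and low score were part of the choice of *Kit*, so these ranks are a description and not a test. No H3K4me3 list held a peak longer than 9200 bp, and the longest of each list measured 8843 to 9200 bp. H3K27ac showed the same order of length classes, from a median percentile of 70.4 at 2 to 4 kb to 12.7 at 8 kb and longer, and its longest peaks measured 8769 to 8973 bp. Whether wider domains were lost in peak calling was not tested, as the lists hold no signal, and this bears on each promoter without a peak, those of *Gata1* and *Gata2* included.

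**Figure D2:**
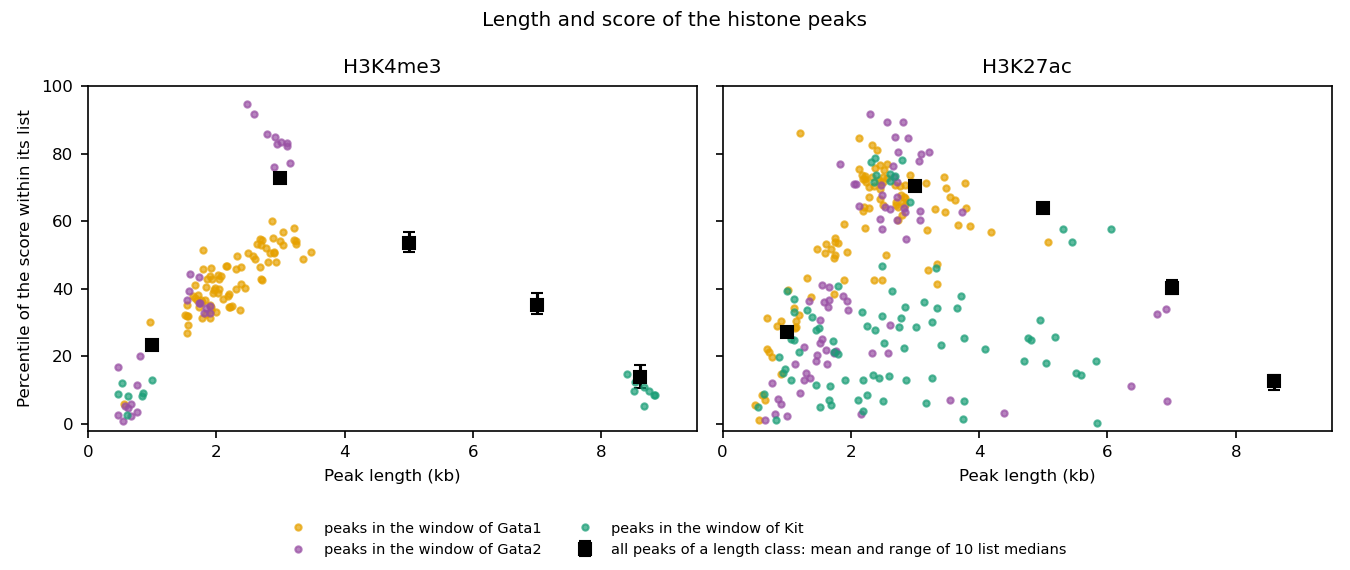
Peak length in kb (x axis) against the percentile of the score within its list (y axis), for H3K4me3 and H3K27ac. Coloured points are peaks in the windows of *Gata1*, *Gata2* and *Kit*; black squares give the mean over 10 lists of the median percentile of all peaks of a length class, with bars from the lowest to the highest list. The *Kit* H3K4me3 peaks over 8 kb sit at 5.39% to 14.9%, most of them below the mean class median of peaks of that length (13.9%).

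The *Kit* promoter carried H3K4me3 in 8 lists without any H3K27ac peak within 2 kb of the TSS in 10 lists. Among the 9729 protein-coding genes with an H3K4me3 peak at the promoter in at least 8 lists, 367 (3.77%) shared this lack of H3K27ac. The share differed by peak length. Over the 10096 promoters with an H3K4me3 peak in any list, of which 571 (5.66%) lacked H3K27ac, it was 22.2% of 1492 promoters whose longest H3K4me3 peak measured under 2 kb, 0.608% of 6418 at 2 to 4 kb, 4.16% of 1754 at 4 to 6 kb, 25.1% of 342 at 6 to 8 kb, and 46.7% (42 of 90) at 8 kb and longer, the class of *Kit*. These counts describe the lists, and how peak length bears on the calling of the other mark was not tested.

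To follow the *Kit* locus through differentiation, covered length per H3K27ac region was compared between 24 h and 0 h with limma, fitted to all 10 lists on log2(covered bp + 200) over 21011 regions. A call means an adjusted p under 0.05, and the change of a region that is absent on 1 side depends on the added 200 bp. Of all regions tested, 6.32% were called (3.3% longer and 3.02% shorter at 24 h), beside 4 of 31 tested regions (12.9%) in the 3 windows, 1 of them longer and 3 shorter. The median change was 0.01 in the windows and 0.01 over all regions. *Gata2* held 3 of the 4 calls, *Kit* held 1 and *Gata1* none. A region that lacks a peak in some lists does not have the evenly spread noise that limma assumes, so the list values are given first for each.

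The *Kit* -71.8 kb region (chr5:75500668-75505577, intergenic) narrowed with time. It covered 4812 and 3767 bp at 0 h, 3264 and 3330 bp after 2 h, 3718 and 3655 bp after 6 h, 2258 and 2484 bp after 12 h, and 1063 and 1064 bp at 24 h. Both 24 h lists were below every other list and both 12 h lists were below all earlier ones, without overlap between 0 h and 24 h. The mean fell from 4290 ± 739 to 1064 ± 0.707 bp (SD, n = 2), a log2 change of -1.82 (SE 0.11, limma adjusted p = 0.000326). The region kept a peak in all 10 lists, with percentiles of 13.0 to 46.1 in their lists, and no CTCF peak lay in it.

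Farther upstream, the *Kit* -114.0 kb region (chr5:75457967-75464028) had peaks only at 12 and 24 h. It was absent from 7 lists and covered 6062 bp in the 12 h replicate 2 list and 5451 and 5313 bp at 24 h. Its peaks scored 280.11 to 318.81, at percentiles of 53.7 to 57.8. Whether its absence from the other lists arose in peak calling was not tested. The change of 4.80 (SE 1.41), in a fit whose spread took in 12 h lists with and without the peak, did not pass the test over all regions (limma adjusted p = 0.11). The change passed when only the 4 lists of 0 h and 24 h were fitted (limma adjusted p = 0.00682). That fit leaves out the 12 h pair, the only pair that disagreed on the peak, so the pass adds no support. Leaving out either 12 h list removes the same disagreement and does not alter the change.

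*Kit* -94.6 kb had peaks in both lists at 0 h and in neither at 24 h. It covered 1463 and 2257 bp at 0 h, 559 bp in 1 list at 6 h and 1672 bp in 1 list at 12 h, and had no peak at 2 or 24 h. The change was -3.34 (SE 1.09, limma adjusted p = 0.142), and its peaks scored low (percentiles 5.1 to 11.5). The change passed in the fit to 0 h and 24 h alone (limma adjusted p = 0.0107). That fit leaves out the 6 and 12 h pairs, in which 1 list had no peak, so the pass adds no support. By presence alone, in both lists of one and neither list of the other of 0 and 24 h, 3 regions of the 3 windows were gained and 3 lost. Over all H3K27ac regions 3.43% were gained and 4.18% lost by this rule. *Kit* -114.0 kb was 1 of the gained and *Kit* -94.6 kb 1 of the lost.

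**Figure D3:**
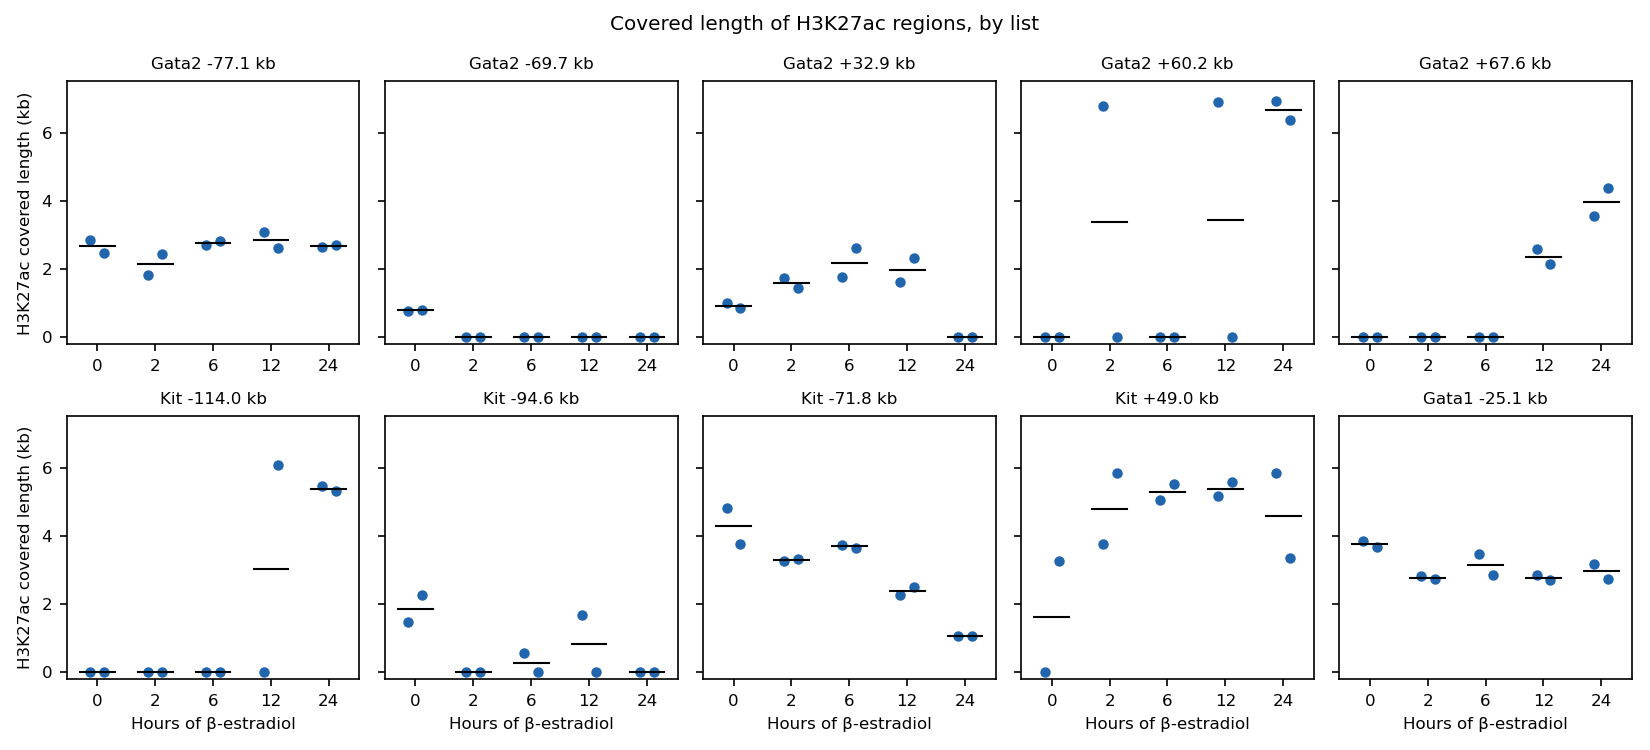
H3K27ac covered length in kb (y axis) against hours of β-estradiol (x axis) for named regions of the *Gata1*, *Gata2* and *Kit* windows. Each point is 1 list (2 per time point), and black lines mark the mean of the pair. *Kit* -71.8 kb declines from 4290 to 1064 bp, and *Gata2* +67.6 kb has no peak at 0, 2 and 6 h and a peak in all 4 lists at 12 and 24 h.

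Between these elements and the gene, *Kit* -37.5 kb kept an H3K27ac peak in all lists, of 1729 to 4944 bp, with a change of -0.55 (SE 0.50, limma adjusted p = 0.595) that was -0.15 without 24 h replicate 1 and -0.94 without 24 h replicate 2. It overlapped a small H3K4me3 region, *Kit* -38.9 kb, that was lost. That region covered 839 and 619 bp at 0 h, 533 and 1004 bp after 2 h and 851 bp in 1 list at 6 h, and had no peak at 12 or 24 h. The presence rule called 3.88% of H3K4me3 regions lost and 0.456% gained, while its change in length of -2.21 (SE 0.73, limma adjusted p = 0.261) did not pass in the fit to all lists. It passed in the fit to 0 h and 24 h alone (limma adjusted p = 0.0346), which leaves out the 6 h pair that disagreed on the peak.

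Within the *Kit* body there were 4 H3K27ac regions, and all lists had at least 1 of them. *Kit* +73.2 kb, centred in intron 15 of 21 exons and holding the start of a shorter annotated transcript, had a peak in all 10 lists of 1724 to 3132 bp. The mean was 2695 ± 450 bp before and 2250 ± 744 bp after 24 h of treatment (SD, n = 2), a change of -0.27 (SE 0.22, limma adjusted p = 0.564). This region had the highest percentiles within the gene, 23.9 to 46.6.

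The *Kit* +49.0 kb region, centred in intron 7, covered 0 and 3257 bp at 0 h, 3748 and 5838 bp after 2 h, 5038 and 5515 bp after 6 h, 5176 and 5585 bp after 12 h, and 5827 and 3344 bp at 24 h. It was missing from 0 h replicate 1 alone, and the other 0 h list was the lowest of those with a peak. The change of 2.47 (SE 1.18, limma adjusted p = 0.307) turned on the replicate without a peak: it was 0.42 without 0 h replicate 1 and 4.53 without 0 h replicate 2 (limma adjusted p = 0.0036). Its 2 h peaks included the lowest-scoring H3K27ac peak of the *Kit* window (50.30, 5838 bp).

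The other intronic regions of *Kit* came and went between replicates. *Kit* +58.4 kb, also in intron 7, had peaks of 1795 to 4084 bp in 7 lists, among them 1 list at 0 h and both at 24 h, with a change of 2.46 (SE 1.86, limma adjusted p = 0.543) that was 4.30 without 0 h replicate 1 and 0.63 without 0 h replicate 2. *Kit* +33.5 kb in intron 2 had peaks in only 12 h replicate 2 (3176 bp) and 24 h replicate 1 (2863 bp). Upstream, *Kit* -20.8 kb was absent at 0 and 2 h and present in both lists at 6 and 12 h and 1 at 24 h, at 642 to 1184 bp; its change of 1.26 (limma adjusted p = 0.444) was 2.51 without 24 h replicate 2 (limma adjusted p = 0.0421) and 0.00 without 24 h replicate 1 (limma adjusted p = 1).

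Downstream of *Kit*, *Kit* +187.3 kb (chr5:75760701-75763875) was the best-scoring H3K27ac region of the window, at 426.22 to 566.01 and percentiles of 65.7 to 78.8. It covered 2312 to 2992 bp in all 10 lists, with a change of -0.08 (SE 0.12, limma adjusted p = 0.741). Taken over the whole window of 322.0 kb, in which *Kit* is the only protein-coding gene, H3K27ac covered 19.9 ± 0.24 kb at 0 h and 25.4 ± 4.57 kb at 24 h (SD, n = 2). That change of 0.34 (SE 0.15) did not pass the test (limma adjusted p = 0.235), the median over all windows being 0.05. It was 0.16 without 24 h replicate 1 and 0.52 without 24 h replicate 2, 0.62 and 0.13 with 60 and 240 kb on either side, and 1.5 with higher-scoring peaks only, and passed in none of these.

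Turning to *Gata2*, 3 H3K27ac regions of its window changed, and all lay outside the gene. *Gata2* +67.6 kb (chr6:88259291-88263699, in an intron of the downstream gene *Eefsec*, which encodes a translation factor for selenocysteine) was gained. It had no peak at 0, 2 or 6 h and covered 2583 and 2158 bp at 12 h and 3548 and 4391 bp at 24 h. All 4 late lists had the peak and none of the 6 earlier lists did. The change was 4.37 (SE 0.29, limma adjusted p = 0.000452), and the peaks scored low for their lists (percentiles 2.81 to 21.1).

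*Gata2* +32.9 kb (chr6:88225473-88228084, within the annotated span of *Dnajb8*, a chaperone gene) was lost after 12 h. It covered 1000 and 862 bp at 0 h, 1751 and 1450 bp after 2 h, 1764 and 2611 bp after 6 h, 1625 and 2329 bp after 12 h, and had no peak at 24 h. Length was thus greatest at the intermediate times, with both 0 h lists below all 6 lists at 2 to 12 h. The change from 0 h to 24 h was -2.50 (SE 0.27, limma adjusted p = 0.00282). The peaks scored low, at percentiles of 2.37 and 7.33 at 0 h and up to 29.4 later. A CTCF peak seen only at 0 h, *Gata2* +33.0 kb (score 63.59), lay in this region.

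Upstream of the gene, the small region *Gata2* -69.7 kb (chr6:88123626-88124685) covered 769 and 812 bp at 0 h and had no peak in the 8 later lists. Its change was -2.31 (SE 0.26, limma adjusted p = 0.00327), and its 0 h peaks scored low (percentiles 12.1 and 2.87). It overlapped an H3K4me3 region, *Gata2* -69.9 kb, of 473 to 806 bp in 8 lists, and the highest-scoring CTCF peak of the window. The H3K4me3 region was missing from both 12 h lists and was back at 24 h, with a change of -0.10 (SE 0.31, limma adjusted p = 0.968). No GATA hexamer occurred in *Gata2* -69.7 kb. As each of the 3 regions lacked a peak in both lists of either 0 h or 24 h, the fitted changes depended on the added length: over all alternatives tried they ran from 2.31 to 6.32 for +67.6 kb, -4.29 to -0.95 for +32.9 kb and -4.07 to -0.84 for -69.7 kb. They stayed called in each alternative in which they could be tested.

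By contrast, *Gata2* -77.1 kb (chr6:88115176-88118320) held an H3K27ac peak in every list. It covered 2865 and 2484 bp at 0 h, 1835 and 2459 bp after 2 h, 2716 and 2827 bp after 6 h, 3079 and 2614 bp after 12 h, and 2651 and 2719 bp at 24 h. The 24 h values lay between the 0 h values, with a change of 0.01 (SE 0.14, limma adjusted p = 1). Its scores were 279.34 and 335.21 at 0 h (percentiles 54.8 and 57.7) and 554.32 and 460.33 at 24 h (76.3 and 71.6). Over all lists the percentiles were 54.8 to 77.0. In 24 h replicate 1, an H3K4me3 peak of 574 bp also lay here.

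One more region, *Gata2* +60.2 kb (chr6:88250603-88257665, over exons of *Dnajb8* and *Eefsec*), was wide and irregular. At 2 and 12 h, 1 list each had a peak here, of 6779 and 6905 bp, as did both 24 h lists, with 6935 and 6371 bp, and it was absent from the other 6 lists. Its change of 5.10 (SE 2.03) did not pass in the fit to all lists (limma adjusted p = 0.218). It did in the fit to 0 h and 24 h alone (limma adjusted p = 0.00682), which leaves out the 2 and 12 h pairs that disagreed on the peak. Its percentiles were 6.67 to 34.0.

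Summed over the *Gata2* window of 253.0 kb, H3K27ac covered 12938 and 12170 bp at 0 h, 21019 and 12051 bp after 2 h, 12529 and 14544 bp after 6 h, 22252 and 14829 bp after 12 h, and 24588 and 21835 bp at 24 h. Both 24 h lists were above both 0 h lists, with means of 12.6 ± 0.54 kb before and 23.2 ± 1.95 kb after treatment (SD, n = 2). The change of 0.87 (SE 0.27) was higher than in 98.2% of windows but did not pass the test over all of them (limma adjusted p = 0.107). *Gata2* +60.2 kb and +67.6 kb, absent at 0 h, covered means of 6653 and 3970 bp at 24 h. In the other direction, *Gata2* +32.9 kb and -69.7 kb, absent at 24 h, had covered means of 931 and 790 bp at 0 h. H3K27ac windows were called in 6.27% of 17810 genes, and none of the 3 here was. At an unadjusted p under 0.05, 1 of the 3 (*Gata2*) passed. The *Gata2* change was 3.30 with 60 kb on either side (limma adjusted p = 0.0484), 0.35 with 240 kb (limma adjusted p = 0.237), and 0.10 with higher-scoring peaks only (limma adjusted p = 0.712).

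H3K4me3 gave no call in the 3 windows. Of 14862 regions tested over all lists, 1.58% were called (0.471% longer and 1.11% shorter), against 0 of 14 in the windows with limma, of which 3 had an unadjusted p under 0.05 (*Kit* -38.9 kb, *Gata1* +83.5 kb and *Gata1* +20.1 kb). The median change was -0.10 in the windows and -0.04 over all regions. Covered length of the *Gata2* window was 5.36 ± 0.26 kb at 0 h and 5.79 ± 0.53 kb at 24 h (SD, n = 2), a change of 0.10 (SE 0.09, limma adjusted p = 0.699), and its best-scoring peak (1721.44) lay at the promoter of *Rpn1*, an oligosaccharyltransferase subunit gene. For *Kit* the values were 9.56 ± 0.16 and 8.59 ± 0.11 kb, with a change of -0.15 (SE 1.23, limma adjusted p = 0.986). Windows were called for 1.3% of 17731 genes, and for 0 of these 3, with 0 also at an unadjusted p under 0.05.

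The *Gata1* window differed from the others in being full of stable promoters. It held 14 protein-coding genes, against 4 for *Gata2* and 1 for *Kit* (the median over all genes was 6), and 9 of its 11 H3K27ac and 8 of its 9 H3K4me3 regions were present in all 10 lists. H3K27ac covered 22.9 ± 0.06 kb at 0 h and 22.8 ± 0.77 kb at 24 h (SD, n = 2), a change of 0.00 (SE 0.08, limma adjusted p = 0.986). H3K4me3 covered 19.2 ± 0.22 and 17.4 ± 0.21 kb, a change of -0.14 (SE 0.06, limma adjusted p = 0.418). The best-scoring H3K4me3 peak was that of the deubiquitinase gene *Otud5* (1248.13) and the best-scoring H3K27ac peak that of the histone methyltransferase gene *Suv39h1* (674.24).

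Upstream of the gene, *Gata1* -25.1 kb (chrX:7991076-7995006) was an intergenic H3K27ac region. It covered 3857 and 3668 bp at 0 h, 2809 and 2729 bp after 2 h, 3461 and 2845 bp after 6 h, 2843 and 2693 bp after 12 h, and 3183 and 2727 bp at 24 h. Both 0 h lists were above all 8 later lists, and the 24 h lists lay within the range of the lists at 2 to 12 h. A change of -0.33 (SE 0.11) did not pass the test (limma adjusted p = 0.138), and the percentiles were 57.4 to 70.7. *Gata1* -33.9 kb was also present in all lists (1317 to 3342 bp, change -0.08, limma adjusted p = 0.993), and *Gata1* -41.5 kb in 2 lists only.

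Nearest to *Gata1* on the other side, the *Hdac6* promoter region, *Gata1* +20.1 kb, had H3K4me3 peaks of 1918 and 1831 bp at 0 h and 1536 and 965 bp at 24 h. Both 24 h lists were below both 0 h lists, with a change of -0.54 (SE 0.18, limma adjusted p = 0.254) that became -0.83 without 24 h replicate 1 (limma adjusted p = 0.0355) and -0.26 without 24 h replicate 2 (limma adjusted p = 0.552). H3K27ac there was a peak of 504 to 909 bp in 6 lists. At *Otud5* the change of the H3K27ac region was 0.36 (limma adjusted p = 0.238), or 0.59 without 24 h replicate 2 (limma adjusted p = 0.0276) and 0.12 without 24 h replicate 1 (limma adjusted p = 0.616).

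CTCF was compared between 0 h and 24 h by position and score, with 1 list each and so no test. The 3 windows held 27 peaks at 0 h and 35 at 24 h, of which 21 were shared. Peaks seen only at 0 h numbered 6 (22.2%), beside 7.87% of all 0 h peaks, and those seen only at 24 h numbered 14 (40.0%), beside 26.7% of all 24 h peaks. The score was higher at 24 h for 19 of the 21 shared peaks, as it was for 26792 of 30414 (88.1%) over the genome, so the direction was that of the whole list. The 24 h list also held more peaks in all. Scores are not comparable between lists, and by percentile the shared peaks moved both ways. *Gata2* -80.5 kb went from 60.3 at 0 h to 88.6 at 24 h, and *Gata2* -87.8 kb from 73.1 to 64.9.

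**Figure D4:**
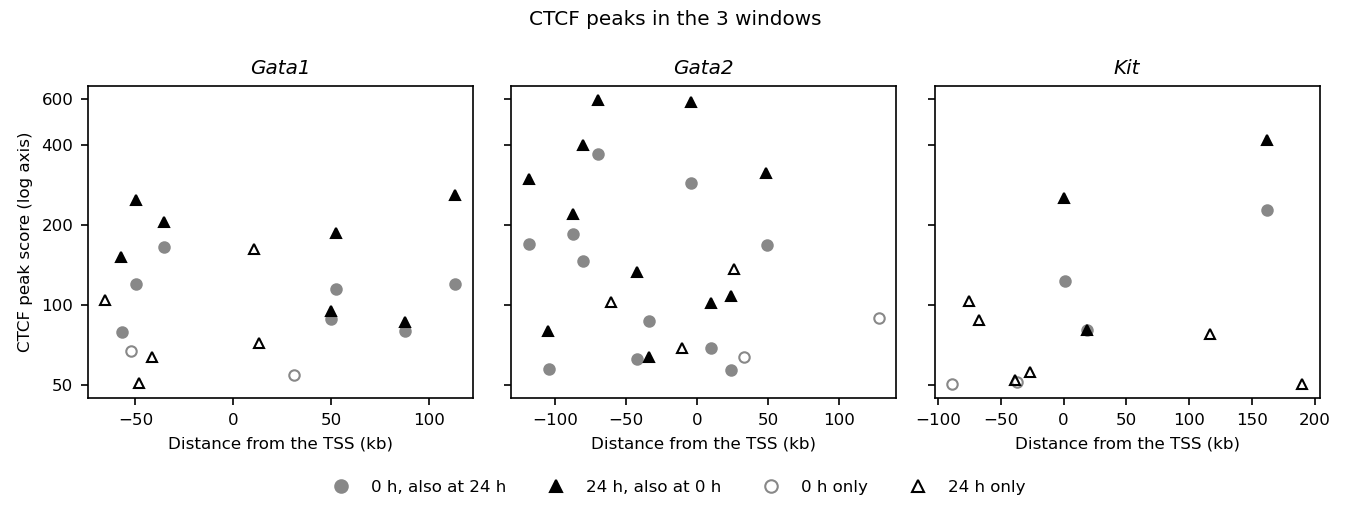
Scores of CTCF peaks (y axis, logarithmic) by distance from the TSS in kb (x axis) in the windows of *Gata1*, *Gata2* and *Kit*, at 0 h and 24 h, with 1 list per time. Peaks found in only 1 list are drawn with open symbols. *Gata2* has the 2 highest peaks, at -70.0 kb (593.05) and -4.3 kb (584.04) in the 24 h list.

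The start of *Kit* had a CTCF peak of 979 bp in intron 1 (+0.9 kb, score 123.27) at 0 h. At 24 h the peak measured 2264 bp and scored 253.54, and it then reached over the TSS. Its percentile within the list was 51.4 at 0 h and 70.3 at 24 h. The other CTCF peak within *Kit*, at +18.5 kb in intron 1, scored 80.38 and 80.34, and was 1 of the 2 shared peaks that did not score higher at 24 h. Of the 9 *Kit* peaks at 24 h, 6 were not found at 0 h.

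Those 6 lay at -75.1 (score 103.24), -66.9 (87.38), -38.4 (51.99), -26.5 (55.97), +116.2 (77.33) and +189.7 kb (50.21). The pair at -75.1 and -66.9 kb stood on either side of the H3K27ac region *Kit* -71.8 kb that narrowed, and the peak at -38.4 kb lay within the H3K27ac region *Kit* -37.5 kb. Peaks seen only at 0 h lay at -88.4 (50.26) and -36.8 kb (51.09), both close to the lowest score in the list. The peak at -36.8 kb also lay within *Kit* -37.5 kb, so both CTCF lists had a peak in that region. The peak at -88.4 kb held 33 GATA hexamers in 967 bp, the most of any CTCF peak in the 3 windows.

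Around *Gata2*, 11 of 13 CTCF peaks at 0 h were also found at 24 h. *Gata2* -4.4 kb, over the non-coding gene *Gm38708*, scored 287.43 at 0 h and 584.04 at 24 h (percentiles 93.0 and 97.6), and *Gata2* -70.0 kb scored 372.87 and 593.05 (97.8 and 97.7). Ranked within their lists, both were thus near the top at either time. The intronic peak *Gata2* +9.5 kb, with the E-box and GATA letters printed above, scored 68.61 at 0 h and 101.25 at 24 h (percentiles 19.7 and 34.1). It held 1 CTCF core as well.

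The CTCF peaks of the *Gata2* window that were found only at 24 h lay at -60.8 (score 102.75), -10.7 (68.65) and +25.9 kb (136.78), and those found only at 0 h at +33.0 (63.59) and +128.1 kb (88.92). In the *Gata1* window, those only at 24 h lay at +13.0 (71.51), +10.6 (163.02), -41.7 (63.57), -48.0 (50.78) and -65.3 kb (104.54), and those only at 0 h at +30.9 (54.49, in *Hdac6*) and -52.3 kb (66.97). The best-scoring of them, *Gata1* +10.6 kb, lay just beyond the 3′ end of the gene. A CTCF core was found in 17 of the 21 shared peaks, in 2 of the 6 only at 0 h and in 10 of the 14 only at 24 h. These counts took in the whole length of each peak. The shares of all CTCF peaks given earlier took in only the central bases, so the counts cannot be set against them. Whether cores were more or less frequent here than in all CTCF peaks was not tested.

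The pathway around these genes was followed through the promoters of 31 genes, 13 GATA factor partners and targets and 18 genes of KIT signalling, all of which matched the annotation. Within 2 kb of the TSS, 27 could be tested for H3K4me3 and 1 was called, beside 0.28% of 10007 promoters. This was *Zfpm1*, which encodes FOG1, a cofactor of GATA1. Its promoter peak covered 3337 and 3431 bp at 0 h and 3382 to 3681 bp in the 6 lists at 2 to 12 h, and was absent from both 24 h lists, a change of -4.16 (SE 0.05, limma adjusted p = 6.65e-08). Like that of *Kit*, this peak was long, reaching 7924 bp. The same promoter had no H3K27ac peak in any list. At other promoters of the 31 genes the H3K4me3 peak was missing from part of a replicate pair. *Gfi1b* had 0 and 2990 bp and *Ldb1* 3598 and 0 bp at 24 h, and *Cbfa2t3* had 0 and 2803 bp at 0 h. The SE at *Zfpm1* took no spread from the 24 h pair, as both lists counted as 0 bp. Whether the absence at *Zfpm1* arose in peak calling was not tested.

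Next in order came *Lmo2*, which encodes a bridging protein of the GATA1 and TAL1 complex, with a change of 0.88 (SE 0.12, limma adjusted p = 0.0543). The 4 promoters of *Tal1*, *Fli1*, *Kitl* (the gene of SCF) and *Mitf* had no H3K4me3 peak in any list. The median change was -0.03 for the 27 promoters and -0.01 for all promoters. For H3K27ac, 20 promoters could be tested and 0 were called by limma, with 4 at an unadjusted p under 0.05 (*Sos1*, *Plcg1*, *Ptpn6* and *Socs1*), beside 1.59% called of 9602 promoters. Their median was -0.01, against 0.02 for all.

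Of the 31 promoters, 10 (32.3%) had no H3K27ac peak in any list, as had 54.9% of all promoters. They were 8 of the 13 GATA partners and targets (*Zfpm1*, *Tal1*, *Lyl1*, *Ldb1*, *Gfi1b*, *Cbfa2t3*, *Runx1* and *Fli1*) and 2 of the 18 KIT signalling genes (*Kitl* and *Mitf*). Of those 8, 6 did have an H3K4me3 peak in at least 8 lists, and its greatest length was 8617 bp at *Gfi1b*, 8524 bp at *Cbfa2t3*, 8331 bp at *Lyl1*, 7924 bp at *Zfpm1*, 5702 bp at *Ldb1* and 4630 bp at *Runx1*. The peaks of 3 of these 6 genes thus reached over 8 kb, as at *Kit*. By comparison, *Klf1*, an erythroid transcription factor gene, had both marks in all 10 lists with a longest H3K4me3 peak of 4625 bp. In all, 16 of the 31 genes had both marks in all 10 lists, with longest peaks of 1814 bp (*Lyn*, a kinase gene) to 6463 bp (*Sh2b3*, an adaptor gene) and a median of 3656 bp. Of these, *Sh2b3*, *Gab2* (6221 bp), *Jak2* (5298 bp) and *Pik3r1* (4697 bp) had longer peaks than *Runx1*, so the lengths of the 2 sets overlapped.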

How the data were processed

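The deposited ChIP-seq peaks of mouse G1ER cells (H3K4me3, H3K27ac, CTCF) were used without changes, and samples were grouped by the antibody and hours given in their titles. Per the study's methods, reads for the histone marks were aligned to mm10 with Bowtie2 and peaks were called with MACS with its model step switched off, separately for each library; the MACS version, control and threshold are not given in the sources used here, nor is any of this for CTCF. Each peak has a deposited score, the authors' value from the peak caller. It is not comparable between libraries, so it was read as a percentile, the percent of peaks in the same list that score lower. The sample descriptions name hg19, but the deposited positions fit the mouse annotation of GENCODE M21 (mm10, GRCm38). There are no read counts, so depth, and with it the precision of a sample, is unknown.

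Peaks of a mark that touched in any of its 10 lists were merged to 1 region, and overlap meant at least 1 bp. Covered length per region, per window (gene body plus 120 kb on each side) and per promoter (2 kb on each side of 1 TSS per gene) was compared between 24 h and 0 h by limma's lmFit and eBayes (trend option) after adding 200 bp and taking log2, with 1 mean per time point (5 in all), for features covered in at least 2 lists. P-values were adjusted by Benjamini-Hochberg over all features of a fit and called under 0.05; changes are log2, 24 h minus 0 h. An exact permutation test of 2 lists with 2 has a smallest p of 0.333, and CTCF with 1 list per time was not tested. The p-values rest on the spread between 2 experiments per time point of 1 clonal line. A list without a peak counts as 0 bp, so a pair of lists that both lack it adds no spread. For such features the SE and p-value can understate the spread between experiments. The fit was also run on simulated data, where 200 regions per mark were given a log2 change of 1. All 200 were called for H3K4me3 and for H3K27ac, beside 11 false calls in each. That run gives no support to calls at features that lack a peak in some lists. The members and gene lists were chosen with earlier results of these data known. Named regions were those in or within 5 kb of the gene bodies, those called, gained or lost, CTCF peaks in the bodies or in 1 list only, called pathway promoters, and neighbouring genes whose TSS such a region holds or whose peak is the highest or lowest scoring of a window; the other regions named (among them *Gata2* -77.1 kb, *Gata1* -25.1 kb, *Kit* -37.5 kb and *Kit* -20.8 kb) were chosen after their values were seen. Motif letters were searched in GRCm38 and in RefSeq promoters (GRCm38.p6). Of the genes chosen to check the cell type, 2 are not reported here. Alternatives were added lengths of 50 and 1000 bp, peaks not below the median score of all lists of a mark, scaling by median peak length, fitting only the 4 lists of 0 h and 24 h, merging within 500 bp, at least 1 or 5 lists, windows of 60 and 240 kb, promoters of 5 kb, 50% overlap, a replicate block, and leaving out each list. The tools were R 4.3.3 (limma 3.58.1) and Python 3.11.15 (numpy 2.4.6, matplotlib 3.10.9).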

Additional observations from a re-analysis of the deposited data

How the results depend on the processing

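The 4 called H3K27ac regions of the windows became 7 with the fit to 0 h and 24 h alone, 2 among regions in at least 5 lists, and 0 with higher-scoring peaks only, where 13 regions could be tested and none of the called ones was among them. Leaving out a list in turn gave 3 to 6. The H3K4me3 count of 0 became 1 with the fit to 0 h and 24 h alone and ranged from 0 to 1 without each list (*Gata1* +20.1 kb without 24 h replicate 1). For pathway promoters, the H3K4me3 count of 1 became 2 with 1000 bp added and 2 with 5 kb around the TSS (*Zfpm1* and *Lmo2* in both), 0 with higher-scoring peaks only, and 1 to 3 without each list, reaching 3 (*Zfpm1*, *Gfi1b* and *Jak2*) without 24 h replicate 2. Their H3K27ac count of 0 ranged from 0 to 1 (*Gab2* without 24 h replicate 1). The *Gata2* H3K27ac window change was 3.30 (limma adjusted p = 0.0484) with 60 kb on either side and no other alternative passed. The sign of 2 uncalled window changes turned: H3K4me3 at *Gata1* was 0.01 with higher-scoring peaks only, and at *Gata2* -0.07 with 240 kb on either side. CTCF peaks in 1 list only numbered 20 with either overlap rule and 7 among higher-scoring peaks, 0 at 0 h and 7 at 24 h. Of single regions, *Gata2* -69.9 kb (H3K4me3) ranged from -0.39 to 0.18 without each list, with 0.08 without 24 h replicate 2, *Gata2* -77.1 kb (H3K27ac) was -0.05 when scaled by median peak length, and -0.09 to 0.10 without each list (-0.01 without 24 h replicate 2), and *Kit* +73.2 kb ranged from -0.58 to 0.05, the latter without 24 h replicate 2. The cause was not tested.

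Replicate numbers did not pair the samples: deviations of same-numbered lists correlated between -0.08 and 0.03 for H3K4me3 and between -0.03 and 0.02 for H3K27ac, with 0 of 10 pairs over 0.1. A replicate block left 0 H3K4me3 and 4 H3K27ac regions and 1 and 0 pathway promoters called, and with it the window changes of *Gata2* and *Kit* in H3K27ac were 0.87 and 0.34 (limma adjusted p = 0.0961 and 0.273). It changed no call. Depth could not be examined, since the lists hold no counts, and with 2 lists per time point a peak missing from 1 list can decide a value, as at *Kit* +49.0 kb.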

Other observations

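Regions of the windows that held a peak in 1 list only were few: *Gata2* +42.4 kb and +91.5 kb for H3K27ac (655 and 1272 bp, both in 24 h replicate 1), *Gata2* +127.6 kb (912 bp in 2 h replicate 1), and for H3K4me3 *Gata2* -57.4 kb (540 bp in 0 h replicate 1, score 51.98), *Gata2* -77.1 kb (574 bp in 24 h replicate 1) and *Gata1* -24.8 kb (556 bp in 2 h replicate 1). The last 2 lay inside the H3K27ac regions *Gata2* -77.1 kb and *Gata1* -25.1 kb, which had a peak in all lists. *Kit* +187.3 kb likewise had small H3K4me3 peaks of 463 to 610 bp in 2 lists inside an H3K27ac region found in all 10.

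The density of GATA hexamers varied among the H3K27ac regions of the windows. *Kit* -20.8 kb, seen only from 6 h on, had 4.22 per kb (5 in 1184 bp), higher than 91.7% of all H3K27ac regions, and *Kit* -71.8 kb was higher than 84.7%. Among regions at promoters of the *Gata1* window there were 0 at *Hdac6* (*Gata1* +20.3 kb) and at *Suv39h1* (*Gata1* -106.5 kb), 0.703 per kb at *Pim2*, 0.965 at *Was* and 1.42 at *Slc35a2*, while *Otud5* (1.92) and *Pqbp1* with *Timm17b* (1.91) were near the median of all regions. *Gata2* -87.0 kb, present in all lists, had 3.21 per kb.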
